A study of Mus musculus with 18 samples.

Results

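Colon tissue of mice given a fermented green tea was compared with colon tissue of mice given saline in 6 of the 18 RNA-seq libraries of the series. Tea libraries were those whose count columns begin with JHHCGX (JHHCGX_129, JHHCGX_148 and JHHCGX_256), and saline libraries those that begin with NCX (NCX_124, NCX_134 and NCX_147). All mice were ICR mice, an outbred laboratory strain, with no stated genotype beyond that. The tea group received Jinhua Hecha by gavage for 44 days and the saline group received saline for 44 days. A further 3 libraries of the same set, from mice given a compound Suanzaoren capsule (FFZRX_139, FFZRX_238 and FFZRX_268), entered the fit only to share its estimate of spread. The labels do not say what the letter X stands for, nor give age or sex. Each treatment has 6 libraries over 2 sets although the submitters' design mentions 3 mice a group, and no label ties a library to a mouse. P-values here thus reflect how far libraries of 1 group vary, and some of that variation may be technical. Values of single libraries are given in the order of the codes above.

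The colon wall is a layered tissue. A surface of absorptive colonocytes and mucus-making goblet cells rests on a connective tissue with immune cells, and smooth muscle layers with a network of enteric neurons lie beneath. Colonocytes take up sodium and water, burn butyrate from the gut microbiota in their mitochondria and hold the barrier through tight junctions and desmosomes. Sleep, the glutamatergic synapse and gut microbes are the subjects in the title of the series, and both a synapse list and a clock list were therefore looked at in the colon.

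Depth was 63180773 to 70397961 counts in tea libraries and 59416627 to 70331109 counts in saline libraries. The colon markers were present in all 6. Epcam, an adhesion molecule of epithelium, was at 1789, 1989 and 2203 CPM in tea libraries against 1595, 1532 and 1182 CPM in saline libraries, and Krt20, a keratin of mature surface cells, at 1748, 1719 and 2379 CPM against 825.2, 1527 and 1523 CPM. CPM here is the usual depth-scaled count, further scaled by TMM, a factor that corrects for library composition. Pairs of libraries of 1 group differed well past sampling noise, with a chi-square of 176.7 to 951 for each degree of freedom, so no libraries were merged, which leaves unsaid whether any came from the same mouse, and the biological coefficient of variation of the fit was 0.559.

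The libraries of each group differed in mitochondrial, mucin and muscle transcripts. In these NCX_134 and NCX_147 lay beyond all tea libraries on the same side, while NCX_124 did not lie on that side. Mitochondrially encoded transcripts took 9.916, 6.524 and 12.22% of counts in tea libraries against 6.017, 18.87 and 17.40% in saline libraries. NCX_124 was thus the lowest of the 6 while NCX_134 and NCX_147 were the highest. Muc2, the main gel-forming mucin of goblet cells, stood at 1687, 2698 and 209.8 CPM in tea libraries against 2959, 30.63 and 82.36 CPM in saline libraries. Clca1, a goblet cell protease, stood at 192.3, 5609 and 229.4 CPM in tea libraries against 4912, 51.96 and 53.22 CPM in saline libraries. For both genes JHHCGX_148 and NCX_124 were high and JHHCGX_256, NCX_134 and NCX_147 low, and JHHCGX_129 was high in Muc2 but not in Clca1. Myh11, the myosin of smooth muscle, ran the other way in saline, at 1121, 1533 and 3126 CPM in tea libraries against 1033, 4409 and 7681 CPM in saline libraries. Elavl4, an RNA-binding protein of neurons, stood at 4.229, 3.266 and 11.45 CPM in tea libraries against 4.879, 35.57 and 41.12 CPM in saline libraries. In each of these measures NCX_124 lay within or beyond the tea libraries, on the side away from NCX_134 and NCX_147, so the 2 groups overlapped. NCX_124 also held Lep, the fat cell hormone leptin, at 57.57 CPM and Col2a1, a cartilage collagen, at 74.44 CPM, which both had no count in the other 5 libraries. Sftpc, a lung surfactant protein, was at 42.07 CPM in JHHCGX_129 and 66.87 CPM in NCX_124 and had no count in the other 4. In bulk tissue, fewer cells of a type and less RNA per cell cannot be told apart.

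**Figure D1:**
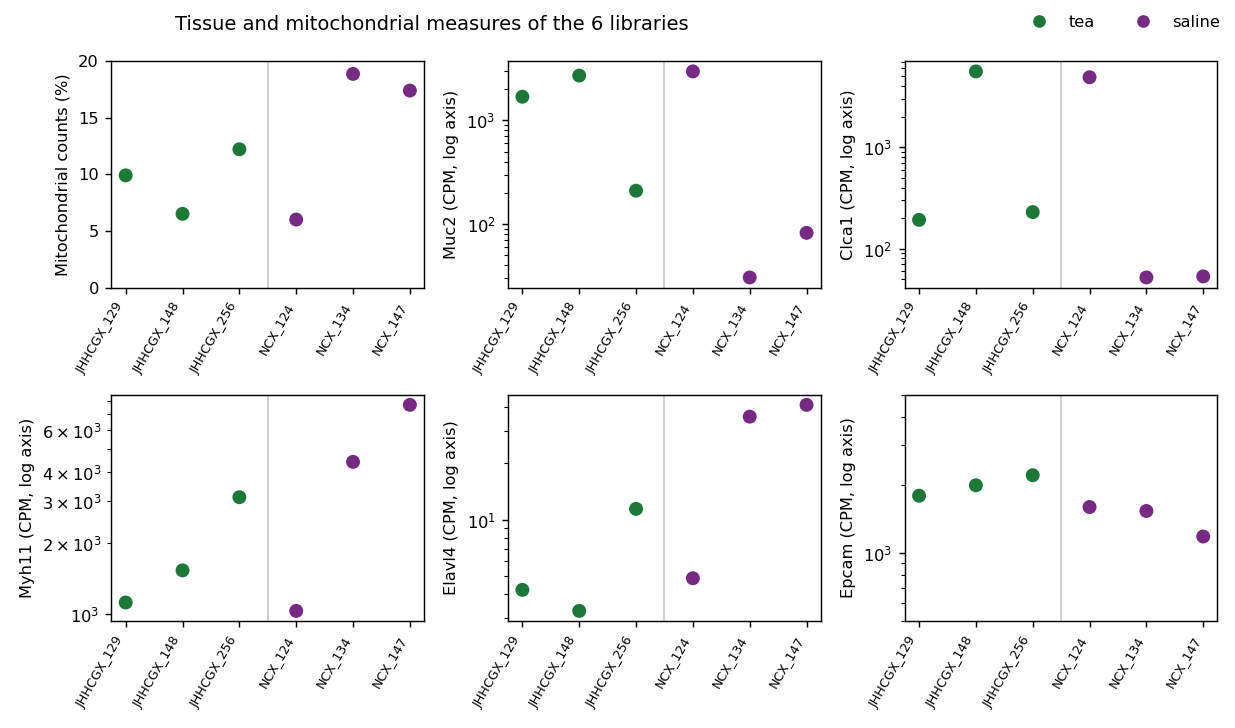
Percent of counts from mitochondrially encoded genes, and TMM-scaled CPM on log axes of Muc2, Clca1, Myh11, Elavl4 and Epcam, 1 point per library with the 3 tea libraries (green) left of the 3 saline libraries (purple). Points of the 2 groups overlap in every panel but that of Epcam, where the tea libraries lie at 1789 to 2203 CPM and the saline libraries at 1182 to 1595 CPM.

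No gene passed the threshold between tea and saline. Of 20889 genes tested with edgeR's quasi-likelihood test, 0 (0%) had a Benjamini-Hochberg adjusted p under 0.05, and the smallest adjusted p was 0.0664. At an unadjusted p under 0.05, 1460 genes (6.99%) stood higher and 2122 (10.2%) lower in tea. In 1997 genes (9.56%) all 3 tea libraries lay above all 3 saline libraries, and in 2378 (11.4%) all lay below. The median log2 fold change over all genes was -0.06, and 46.7% were positive. DESeq2 on the same libraries called 862 genes higher (4.91% of 17550 with an adjusted p) and 1081 lower (6.16%). A limma fit on log2(FPKM + 1) called none higher and 1 lower. That gene, Gm49933, an unnamed transcript named here because it was the only one, had no count in any tea library and 0.2296, 0.3026 and 0.253 CPM in the saline libraries. Without NCX_124, the saline library with high mucin and low mitochondrial counts, edgeR called 213 genes higher (0.979% of those tested) and 327 lower (1.5%), and without both NCX_124 and FFZRX_139 it called 0. With all 18 libraries in 1 fit it called 81 higher (0.362%) and 367 lower (1.64%).

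The genes of smallest p in each direction were evenly spread within each group. The 8 with the smallest p among higher genes were Kcnk5, Midn, Zfp687, Ptprf, Chmp6, Frmd8, Ppargc1b and Pklr, and the 8 among lower genes were Lrif1, Chordc1, Mphosph8, Zfp280d, Zfp638, Ankrd12, Pcmtd1 and Ppid. For each of these 16 the adjusted p was 0.0664 in edgeR, so none passed, all 3 tea libraries lay on 1 side of all 3 saline libraries, and DESeq2 gave an adjusted p under 0.05. Other genes had the same adjusted p in edgeR, among them Srcap, Cacybp, Tra2a, Luc7l3 and Pnisr, so the 16 are not alone nearest the threshold. Because the 16 were picked by their p in these libraries, tight and separate groups come with that choice. The same holds for the low DESeq2 values, so neither adds support, here or below. All 16 had an adjusted p of 0.0455 in the edgeR fit without NCX_124, and of 0.0608, again past no threshold, in the fit without NCX_124 and the capsule library FFZRX_139.

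Kcnk5, a background potassium channel of epithelia on chromosome 14 (20140057 to 20181809, GRCm38), was at 119.5, 136.8 and 142.7 CPM in tea libraries against 51.3, 64.72 and 54.65 CPM in saline libraries. Its log2 fold change was 1.23 ± 0.15, where the error is a standard error taken from the test. The lowest tea library lay above the highest saline library by a wide gap. Ppargc1b, a coactivator of nuclear genes for mitochondria on chromosome 18 (61298136 to 61400431), was at 13.91, 15.42 and 15.57 CPM in tea libraries against 6.658, 5.732 and 6.698 CPM in saline libraries, a log2 fold change of 1.23 ± 0.19. Ptprf, a receptor tyrosine phosphatase found at contacts between cells, was at 206.4, 210.6 and 239.3 CPM in tea libraries against 104.5, 110.3 and 114.6 CPM in saline libraries, a log2 fold change of 0.99 ± 0.14. Midn, which carries nuclear proteins to the proteasome, was at 175.7, 187.1 and 188.1 CPM in tea libraries against 92.75, 96.54 and 80.13 CPM in saline libraries, a log2 fold change of 1.03 ± 0.14. These levels were close within each group and apart between them. The other 4 had log2 fold changes of 0.95 to 1.05: Chmp6, a subunit of a membrane-scission complex, Frmd8, a partner of the iRhom proteins that control shedding at the cell surface, Pklr, a pyruvate kinase, and Zfp687, a zinc finger protein.

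Chordc1, an Hsp90 co-chaperone on chromosome 9 (18292125 to 18317442), was at 24.33, 22.03 and 21.33 CPM in tea libraries against 62.86, 64.01 and 62.03 CPM in saline libraries, a log2 fold change of -1.48 ± 0.19. Ppid, the cyclophilin partner of Hsp90, was at 19.39, 14.04 and 18.13 CPM in tea libraries against 44.74, 38.76 and 42.72 CPM in saline libraries, a log2 fold change of -1.29 ± 0.19. Both sets of 3 libraries were tight. Lrif1, a partner of heterochromatin protein HP1 on chromosome 3 (106684987 to 106736574), was at 9.759, 9.814 and 10.45 CPM in tea libraries against 25.18, 27.92 and 27.58 CPM in saline libraries, a log2 fold change of -1.43 ± 0.17. Mphosph8, a subunit of the HUSH silencing complex that binds methylated histone H3, was at 8.443, 6.619 and 7.125 CPM in tea libraries against 18.77, 21.18 and 25.66 CPM in saline libraries, a log2 fold change of -1.56 ± 0.21. Zfp638, whose human counterpart works with HUSH on foreign DNA, averaged 16.67 ± 2.69 CPM in tea libraries and 47.56 ± 5.77 CPM in saline libraries (SD, n = 3 each). Each of these groups of 3 was separate. Ankrd12, a nuclear ankyrin-repeat protein, had the lowest value of the 8, at -1.61 ± 0.23. Zfp280d, a zinc finger protein, was at -1.39 ± 0.19, and Pcmtd1, which has a protein-repair methyltransferase domain, at -1.42 ± 0.21.

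**Figure D2:**
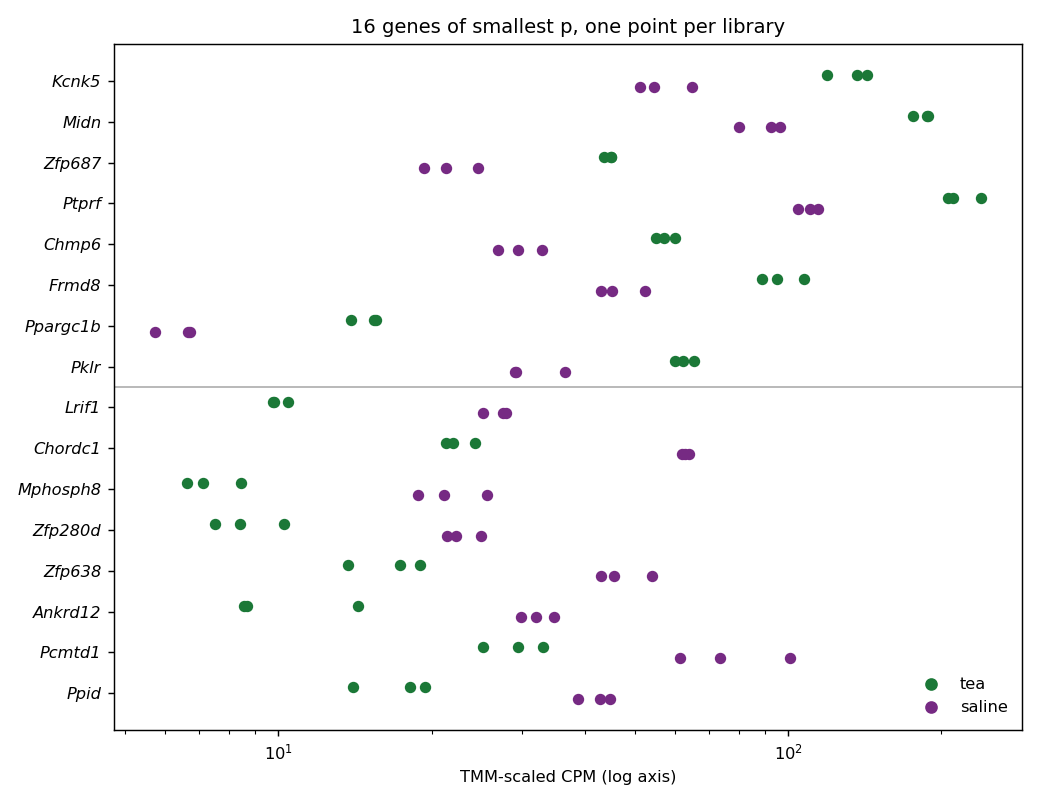
TMM-scaled CPM on a log axis of the 16 genes with the smallest p, 1 point per library, tea (green) drawn above saline (purple) in each row and the 8 genes that stood higher in tea above the line. In none of the 16 do the groups overlap, with Kcnk5 at 119.5 to 142.7 CPM in tea libraries and 51.3 to 64.72 CPM in saline libraries, and Chordc1 at 21.33 to 24.33 CPM in tea libraries and 62.03 to 64.01 CPM in saline libraries.

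The same 16 genes had smaller differences between tea and saline in the other set of libraries, named C. They were picked by p in set X, so smaller values in set C come with that choice. The values below thus cannot show a change particular to set X. There the 8 genes higher in set X had log2 fold changes of -0.25 to 0.60 and the 8 lower ones of -0.28 to 0.07, each with an adjusted p of 0.9999 by edgeR. The difference between the tea effects of the 2 sets was tested in all 18 libraries, and 0 of 22380 genes (0%) passed in edgeR, with 1346 at an unadjusted p under 0.05. For the 8 higher genes that difference was 0.37 to 1.502 with adjusted p of 0.396 to 0.949, and for the 8 lower genes -1.61 to -1.07 with adjusted p of 0.199 to 0.648. Tea and saline of the 2 sets share no library.

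All listed genes of cholesterol synthesis and uptake had higher estimates in tea, none past the adjusted threshold. The cell makes sterols from acetyl-CoA through mevalonate and squalene, and the transcription factor SREBP-2 switches on the genes of synthesis and uptake together when membrane sterol is low. All 25 listed genes passed the filter on low counts and all 25 had a positive log2 fold change, against 46.7% of all genes. The median was 0.76 against -0.06 over all genes, 16 had an unadjusted p under 0.05 by edgeR (6.99% of all genes) and in 16 the tea libraries all lay above the saline libraries (9.56% of all genes). None passed after adjustment over all genes, while DESeq2 gave 12 an adjusted p under 0.05 (4.91% of all genes). Fdft1, squalene synthase, was at 165.2, 165.2 and 145.6 CPM in tea libraries against 88.29, 72.94 and 67.81 CPM in saline libraries, a log2 fold change of 1.06 ± 0.24 (edgeR adjusted p = 0.092). The lowest tea library was well above the highest saline library. Summed over the list, the level was 2098, 2072 and 1878 CPM in tea libraries against 1478, 1141 and 1024 CPM in saline libraries, again without overlap. NCX_124 was the saline library nearest to tea. In the mean of JHHCGX_129 and JHHCGX_148, 21 of the 25 genes were higher than in NCX_124 (46.8% of all genes). All 25 were higher in JHHCGX_256 than in the mean of NCX_134 and NCX_147 (46.0% of all genes). Both counts come from the same values as the fold changes. The 16 genes with all tea libraries above all saline libraries are in both counts by that fact, so the counts add no support. The list's median stayed at 0.55 to 0.86 under all 22 alternative settings, among them 0.68 with the mitochondrial percent as a term and 0.76 with GC trends taken out. In set C it was 0.21, with 20 of 25 positive. Fatty acid synthesis, which the related factor SREBP-1 governs, had 9 of 15 positive and a median of 0.10, which was 0.41 without NCX_124 and -0.05 without JHHCGX_148.

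The start of Hmgcs1, which makes the precursor of mevalonate, is shown because its window was the only one of the list with the searched sterol motif. The window holds 250 bases before and 50 after the RefSeq start (GRCm38.p6, chr13:119690101-119690400, plus strand), and capitals mark the motif TCACNCCAC.
Hmgcs1: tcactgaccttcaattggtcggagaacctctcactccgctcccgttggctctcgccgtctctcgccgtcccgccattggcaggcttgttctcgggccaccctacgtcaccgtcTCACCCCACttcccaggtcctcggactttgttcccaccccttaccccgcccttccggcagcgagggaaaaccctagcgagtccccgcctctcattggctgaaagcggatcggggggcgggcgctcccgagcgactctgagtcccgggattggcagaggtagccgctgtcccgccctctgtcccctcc
Hmgcs1 was at 201.3, 194.9 and 178.9 CPM in tea libraries against 168.4, 121.7 and 103.9 CPM in saline libraries, a log2 fold change of 0.55 ± 0.25 (edgeR adjusted p = 0.307). The motif, searched on both strands, was in 1 of 17 windows of the list and in 1.22% of 27025 windows of all genes. It was also in 1 of 20 windows of the heat shock list described below, that of Fkbp4. The CCAAT box, whose binding factor NF-Y is known to act beside SREBP-2, was in 15 of 17 windows of the list against 37.9% of all windows, again on both strands and as letters only. No test was made of these shares.

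Genes of the epithelial surface and its junctions stood higher in tea as well. Of 26 junction genes, all tested, 23 were positive with a median of 0.58, 11 had an unadjusted p under 0.05 (6.99% of all genes) and in 13 all tea libraries lay above all saline libraries (9.56%). Jup, plakoglobin, which ties cadherins to the cytoskeleton, was at 350.1, 390.1 and 370.5 CPM in tea libraries against 190.2, 200.3 and 186.2 CPM in saline libraries (log2 fold change 0.95 ± 0.18, edgeR adjusted p = 0.0701). Pkp3, a plaque protein of desmosomes, was at 143.6, 158.6 and 194.3 CPM in tea libraries against 83.1, 94.84 and 81.99 CPM in saline libraries (0.93 ± 0.18). Tjp3, a scaffold of tight junctions, was at 293.8, 364.3 and 328.7 CPM in tea libraries against 221.2, 220 and 154.3 CPM in saline libraries (0.73 ± 0.19). None of these 3 genes passed and in none did the groups overlap. Of 22 genes of mature surface colonocytes 21 were positive, with a median of 0.76, 7 at an unadjusted p under 0.05 and 8 with the groups apart. Vil1, the actin bundler of the brush border, was at 821.4, 950.4 and 1204 CPM in tea libraries against 495.4, 690.6 and 540.6 CPM in saline libraries (0.79 ± 0.24). Cdhr2, a cadherin that links microvilli, was at 1211, 1183 and 1961 CPM in tea libraries against 437.9, 863 and 907.9 CPM in saline libraries (0.98 ± 0.37). Lypd8, a secreted protein that keeps flagellated bacteria off the colon surface, was at 9050, 13500 and 18000 CPM in tea libraries against 7149, 8552 and 5703 CPM in saline libraries (0.92 ± 0.36). For Vil1, Cdhr2 and Lypd8 alike JHHCGX_256 was the highest of the 6. Epcam moved with these lists and smooth muscle genes the other way. Other epithelial lists were mixed, with 8 of 16 crypt stem cell, 13 of 20 goblet cell and 12 of 20 enteroendocrine genes positive. The part of epithelial and muscle content in the result was not tested. With the mitochondrial percent as a term the medians were 0.51 for junctions and 1.03 for surface colonocytes, and neither list's median moved by more than 1.5 times under any of the 22 settings.

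Among 23 ion transport genes of colon epithelium 17 were positive, with a median of 0.33, 2 at an unadjusted p under 0.05 (6.99% of all genes) and 4 with the groups apart above saline (9.56%). Scnn1a, a subunit of the apical sodium channel ENaC, was at 315.2, 322.1 and 339.4 CPM in tea libraries against 118.5, 194.5 and 135.5 CPM in saline libraries (log2 fold change 1.12 ± 0.29, edgeR adjusted p = 0.117). Slc9a2, an apical sodium-proton exchanger, was at 557.3, 543.9 and 787.6 CPM in tea libraries against 252.4, 436.7 and 467.3 CPM in saline libraries (0.71 ± 0.31). The groups did not overlap in either gene. The list's median was 0.99 without NCX_124, 0.20 without NCX_134 and 0.15 without NCX_147.

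Most nuclear genes of oxidative phosphorylation had positive values and most mitochondrially encoded ones negative values, none past the threshold. The respiratory chain is built from subunits of both genomes. Of 84 nuclear genes tested (of 85 listed), 81 were positive with a median of 0.51, 31 had an unadjusted p under 0.05 (6.99% of all genes) and in 26 all tea libraries lay above all saline libraries (9.56%). DESeq2 called 20 of them higher (4.91% of all genes). Ndufs4, a subunit of complex I, was at 66.84, 53.94 and 56.3 CPM in tea libraries against 40.11, 32.44 and 35.65 CPM in saline libraries (log2 fold change 0.71 ± 0.16, edgeR adjusted p = 0.0887). Ndufv3, another complex I subunit, was at 70.66, 56.69 and 57.52 CPM in tea libraries against 36.32, 32.63 and 44.52 CPM in saline libraries (0.70 ± 0.18). Cox6a1, a subunit of cytochrome c oxidase, was at 407.1, 355.8 and 372.3 CPM in tea libraries against 243.3, 237.5 and 175.8 CPM in saline libraries (0.79 ± 0.19). The groups were apart in each, with JHHCGX_129 the highest library. Of the 13 mitochondrially encoded subunits 12 were negative, with a median of -1.09, yet in none did the groups separate. Their summed level was 95010, 62990 and 136400 CPM in tea libraries against 49010, 194600 and 173400 CPM in saline libraries, so that NCX_124 was the lowest library of all. mt-Nd4, a complex I subunit, was at 2505, 1551 and 4153 CPM in tea libraries against 2850, 10320 and 10060 CPM in saline libraries (-1.501 ± 0.55). mt-Nd2 was at -1.46 ± 0.52 and mt-Nd4l at -1.64 ± 0.60. With the mitochondrial percent as a term the medians were 0.35 for the nuclear and -0.25 for the mitochondrial subunits, and with GC trends taken out 0.50 and -0.20. Without NCX_124 the nuclear median was 0.79 and the mitochondrial one -1.44.

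Other genes of energy supply had smaller positive medians. Of 21 genes of the TCA cycle and pyruvate entry 17 were positive. At an unadjusted p under 0.05, 6 were higher (6.99% of all genes) and 1 lower (10.2%). Their median was 0.30, which was 0.07 with the mitochondrial percent as a term and 0.47 without NCX_124. In fatty acid oxidation and ketone synthesis 18 of 20 were positive, median 0.32. Of the 20, 6 were higher at an unadjusted p under 0.05 (6.99% of all genes) and 5 had tea above saline throughout (9.56%). Acads, which takes butyrate-derived short chains into oxidation, was at 205.9, 154.6 and 129.2 CPM in tea libraries against 119.7, 61.47 and 75.73 CPM in saline libraries (log2 fold change 0.93 ± 0.28, edgeR adjusted p = 0.149). Hadha, of the long-chain oxidation complex, was at 324.8, 323.4 and 311.5 CPM in tea libraries against 207, 204.4 and 261 CPM in saline libraries (0.51 ± 0.16). Cpt2, which hands fatty acids over inside mitochondria, was at 93.39, 97.75 and 69.74 CPM in tea libraries against 65.65, 51.19 and 51.72 CPM in saline libraries (0.63 ± 0.20). All tea libraries exceeded all saline libraries for these 3. The 22 genes of the NRF2 antioxidant response were all positive, with a median of 0.42 that was 0.16 with the mitochondrial percent as a term and 0.27 without NCX_147. Its 3 genes of smallest p belong to the pentose phosphate path: G6pdx at 0.81 ± 0.27, Taldo1 at 0.47 ± 0.16 and Pgd at 0.43 ± 0.18. Of the 22, 4 had an unadjusted p under 0.05 (6.99% of all genes). Cytosolic ribosomal protein genes had 79 of 83 positive and a median of 0.66, but 10 at an unadjusted p under 0.05 (6.99% of all genes) and 4 with the groups apart above saline (9.56%). Their summed level was 42890, 27640 and 23230 CPM in tea libraries against 32820, 14370 and 12050 CPM in saline libraries, and the median was 0.36 without JHHCGX_129, 1.29 without NCX_124 and 0.42 without NCX_147. Rpl41 was at 687.2, 389.6 and 428.8 CPM in tea libraries against 351, 177.9 and 167.9 CPM in saline libraries (1.11 ± 0.34). Rps3a2 and Rps3a3 had values of 3.46 ± 1.23 and 4.64 ± 1.49, but both are near-identical copies of Rps3a1 and how the authors assigned such reads is not stated in the labels.

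Heat shock chaperones stood lower in tea. These proteins fold clients and rescue unfolded ones, and heat shock factor 1 drives them through heat shock elements in their promoters. All 25 listed genes were tested and 22 were negative, with a median of -0.72. At an unadjusted p under 0.05 13 were lower (10.2% of all genes), and in 10 all tea libraries lay below all saline libraries (11.4%). DESeq2 called 5 lower (6.16% of all genes). Beside Chordc1, Cacybp, a partner of Hsp90 and of a ubiquitin ligase, was at 29.26, 33.17 and 28.07 CPM in tea libraries against 59.84, 57.64 and 61.56 CPM in saline libraries (log2 fold change -0.98 ± 0.16, edgeR adjusted p = 0.0664). Dnaja1, which feeds clients to Hsp70, was at 63.66, 68.57 and 77.78 CPM in tea libraries against 121.3, 188.5 and 198.8 CPM in saline libraries (-1.28 ± 0.24). Hsp90aa1, the inducible Hsp90, was at 102.7, 155.4 and 221.3 CPM in tea libraries against 282, 417.9 and 487.1 CPM in saline libraries (-1.31 ± 0.35). Tea libraries were below all saline libraries for each of these genes. Hsph1, an exchange factor of Hsp70, was at 28.34, 48.45 and 119.9 CPM in tea libraries against 96, 183.2 and 255.6 CPM in saline libraries, and there JHHCGX_256 lay above NCX_124. Hspa1a, an inducible Hsp70 whose reads may be shared with its copy Hspa1b, was at 26.16, 32.88 and 46.36 CPM in tea libraries against 37.71, 149.3 and 91.64 CPM in saline libraries, with JHHCGX_256 again above NCX_124. Hspa8, the constitutive Hsp70, was at 836.5, 1038 and 1022 CPM in tea libraries against 1466, 1376 and 1182 CPM in saline libraries (-0.47 ± 0.20), without overlap. The mitochondrial chaperonins Hspd1 and Hspe1 stood at -0.39 ± 0.27 and 0.27 ± 0.28. Dnajb1 (0.25) and Fkbp4 (0.13) were the other members with a positive value. The list's median was -0.41 with the mitochondrial percent as a term, -0.58 with GC trends taken out and -0.44 without JHHCGX_129. In set C it was 0.14 with 20 of 25 positive. The unfolded protein response list, which includes chaperones of the endoplasmic reticulum, had no common side. Of its 20 genes 12 were negative, with a median of -0.08, which was 0.13 without NCX_124. At an unadjusted p under 0.05, 3 of the 20 were lower (10.2% of all genes) and 0 higher (6.99%). By rising p these were Hsp90b1 at -0.68 ± 0.21, Hspa5 at -0.84 ± 0.26 and Dnajc3 at -0.55 ± 0.19. In these 3, and in no other gene of the list, all tea libraries lay below all saline libraries (11.4% of all genes). Hspa5, the Hsp70 of that compartment, was at 158.2, 318.7 and 246.1 CPM in tea libraries against 426.3, 417.9 and 449.9 CPM in saline libraries.

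Start windows of Chordc1 and Hsph1 are shown because they carry the heat shock element searched, which capitals mark: GAA, then TTC, then GAA, with 2 bases of any kind between neighbours. Both hold 250 bases before and 50 after the RefSeq start (GRCm38.p6), Chordc1 at chr9:18292017-18292316 on the plus strand and Hsph1 at chr5:149636287-149636586 on the minus strand, written along the gene.
Chordc1: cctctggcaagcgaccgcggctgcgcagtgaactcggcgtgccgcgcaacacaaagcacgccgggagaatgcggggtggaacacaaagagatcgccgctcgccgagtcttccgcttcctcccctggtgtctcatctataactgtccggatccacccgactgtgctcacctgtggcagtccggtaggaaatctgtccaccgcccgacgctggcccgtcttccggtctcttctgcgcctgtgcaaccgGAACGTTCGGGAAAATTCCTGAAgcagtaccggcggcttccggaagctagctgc
Hsph1: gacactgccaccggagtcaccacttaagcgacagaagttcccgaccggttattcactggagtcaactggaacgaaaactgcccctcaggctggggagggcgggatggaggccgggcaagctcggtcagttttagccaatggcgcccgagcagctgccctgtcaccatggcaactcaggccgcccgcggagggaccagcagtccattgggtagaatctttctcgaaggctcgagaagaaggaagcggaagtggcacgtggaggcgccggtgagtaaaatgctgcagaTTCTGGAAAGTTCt
Chordc1 holds 3 overlapping matches near the end of the window, and Hsph1 holds 1 on the reverse strand, at base 287. On both strands, 3 of 20 heat shock windows (Chordc1, Hspe1 and Hsph1) held the element, against 0.518% of 27025 windows of all genes. The 3 genes did not share a direction: Chordc1 was at -1.48, Hsph1 at -1.44 and Hspe1 at 0.27 on the log2 scale.

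Splicing factors of the SR family and their Clk kinases stood lower in tea. SR proteins bind exons and recruit the spliceosome, and Clk kinases phosphorylate them. Of 23 genes, all tested, 20 were negative with a median of -0.66, 16 had an unadjusted p under 0.05 (10.2% of all genes) and in 16 all tea libraries lay below all saline libraries (11.4%). DESeq2 called 12 lower (6.16% of all genes). Tra2a, an SR-like activator of exons, was at 45.22, 53.75 and 54 CPM in tea libraries against 145, 158 and 116.2 CPM in saline libraries (log2 fold change -1.45 ± 0.21, edgeR adjusted p = 0.0664). Luc7l3, a partner of the U1 particle, was at 52.07, 46.42 and 61.66 CPM in tea libraries against 118.1, 122.2 and 124.5 CPM in saline libraries (-1.19 ± 0.19). Pnisr, a serine- and arginine-rich nuclear protein, was at 46.55, 32.49 and 57.4 CPM in tea libraries against 118.4, 152.7 and 141.5 CPM in saline libraries (-1.60 ± 0.28). The libraries of the 2 groups were apart in all 3 genes. In set C the median was 0.06 with 17 of 23 positive. Malat1, a nuclear RNA of splicing speckles, was at 295.9, 206.3 and 285.4 CPM in tea libraries against 402.2, 624.1 and 393.9 CPM in saline libraries (-0.85 ± 0.25).

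GC content moved with the whole comparison. Transcripts of the splicing list had a median GC content of 42.8%, against 49.6% over all genes. Across 20852 genes Spearman's rho between GC content and the log2 fold change was 0.323, and that between transcript length and the log2 fold change -0.254, given as a description over genes of the same 6 libraries. Genes were sorted into 10 bins of rising GC content. The median log2 fold change was -0.69 in bin 1, with 16.3% positive, and 0.21 in bin 9, with 63.5% positive. Bin 2 (41.25 to 43.89% GC), which holds the median GC content of the splicing list, had a median of -0.41, with 25% positive. Each of the 3 tea libraries had a positive correlation of its deviations with GC content (0.161, 0.24 and 0.201) and each of the 3 saline libraries a negative one (-0.194, -0.178 and -0.163). In GC content, unlike in mucin or mitochondrial counts, NCX_124 therefore lay with the other saline libraries. The 8 lower genes of smallest p had a GC content of 33.4 to 42.6%, and the 8 higher ones of 54.2 to 59.3%. With the GC trend of each library taken out, the correlation with GC content was -0.01 and edgeR called 0 genes, with 1458 higher and 1304 lower at an unadjusted p under 0.05. The 8 higher genes then stood at 0.75 to 1.03 and the 8 lower ones at -1.15 to -0.41. Lrif1 was then at -0.41, Chordc1 at -0.60 and Kcnk5 at 1.03, and the splicing list had a median of -0.24. The part that GC content plays in these values was not tested beyond this.

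**Figure D3:**
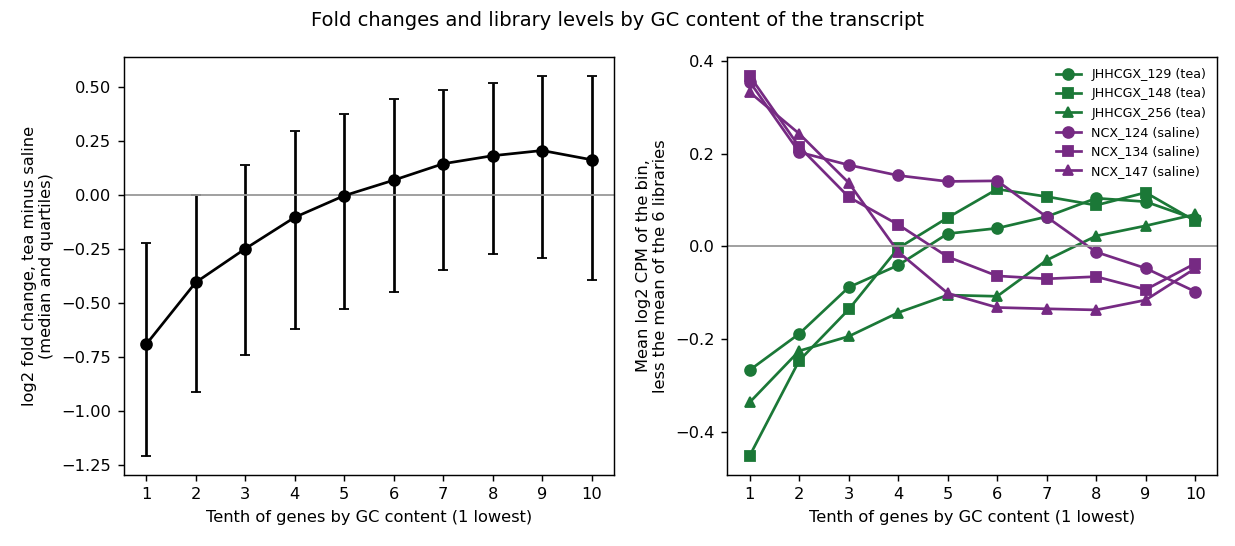
Left, median and quartiles of the log2 fold change (tea minus saline) in 10 bins of genes by GC content of the transcript, and right, mean log2 CPM of each bin in each library less the mean of the 6 libraries, tea in green and saline in purple. In the lowest bin the 3 tea libraries lie at -0.45 to -0.27 and the 3 saline libraries at 0.33 to 0.37, so the groups do not overlap there.

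Genes of smooth muscle and enteric neurons had negative values throughout both lists, with overlap between the groups. All 20 smooth muscle genes were negative, with a median of -0.96, but 2 had an unadjusted p under 0.05, the share seen over all genes (10.2%), and in none were the groups apart (11.4%). Their summed level was 11210, 14460 and 28830 CPM in tea libraries against 11640, 37310 and 56240 CPM in saline libraries, so NCX_124 lay with the tea libraries. Cald1, caldesmon, an actin-binding protein of contraction, was at 142.7, 200.5 and 398.5 CPM in tea libraries against 206.5, 819.1 and 1437 CPM in saline libraries (log2 fold change -1.73 ± 0.67). Myocd, the master coactivator of smooth muscle genes, was at -1.41 ± 0.63. The smooth muscle median was 0.04 with the mitochondrial percent as a term, -0.50 without NCX_147 and -1.495 without JHHCGX_256. Between JHHCGX_129 and JHHCGX_148 and NCX_124, 13 of the 20 genes were higher in tea (46.8% of all genes). All 23 enteric neuron genes were negative as well, with a median of -0.74 and 1, Elavl4, at an unadjusted p under 0.05. Their summed level was 439.4, 550.6 and 1355 CPM in tea libraries against 334.7, 1761 and 1714 CPM in saline libraries, and their median was 0.60 with the mitochondrial percent as a term. Without 1 library it was -0.42 (JHHCGX_129), -1.39 (JHHCGX_256), -1.19 (NCX_124) and -0.32 (NCX_147). Snap25, a protein of vesicle fusion, was at 19.13, 19.23 and 58.08 CPM in tea libraries against 14.51, 91.02 and 116.6 CPM in saline libraries (-1.20 ± 0.76, and 0.20 with the mitochondrial percent as a term), and Map2, of dendrites, at -0.88 ± 0.55. In the interstitial cells of Cajal, the pacemakers of gut movement, 7 of 9 genes were negative with a median of -0.84, which was 0.10 without NCX_147 and -0.54 without JHHCGX_129. Kit, their receptor kinase, was at 49.81, 34.73 and 35.41 CPM in tea libraries against 45.33, 31.43 and 145 CPM in saline libraries, and NCX_147 alone was high.

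Fibroblast and matrix genes were mostly negative too, and in a few the groups were apart. Of 22 genes 20 were negative, with a median of -0.91, 9 at an unadjusted p under 0.05 (10.2% of all genes) and 5 with all tea libraries below all saline libraries (11.4%). Postn, periostin, a matrix protein of remodelling tissue, was at 34.29, 65.08 and 81.74 CPM in tea libraries against 111.5, 274.7 and 399.5 CPM in saline libraries (log2 fold change -2.12 ± 0.47, edgeR adjusted p = 0.0887). Its groups did not overlap. Col5a2, a fibril collagen, was at 20.76, 26.17 and 36.19 CPM in tea libraries against 35.97, 59.34 and 123.7 CPM in saline libraries (-1.40 ± 0.43), where JHHCGX_256 and NCX_124 were level. Dcn, decorin, was at 86.42, 130.7 and 105 CPM in tea libraries against 129.4, 206.2 and 509.4 CPM in saline libraries (-1.39 ± 0.44). The list's median was -0.62 with the mitochondrial percent as a term, -0.57 without JHHCGX_129 and -0.48 without NCX_147.

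The glutamatergic synapse list, whose theme comes from the study's title, had 36 negative of 45 genes tested (of 52 listed) and a median of -0.63. At an unadjusted p under 0.05 11 were lower (10.2% of all genes) and 1 higher, and in 7 all tea libraries lay below all saline libraries (11.4%). None passed in edgeR after adjustment, and DESeq2 called 4 lower (6.16% of all genes). Gria3, a subunit of AMPA receptors, was at 2.021, 2.206 and 4.062 CPM in tea libraries against 4.549, 12.76 and 17.61 CPM in saline libraries (log2 fold change -2.07 ± 0.56, edgeR adjusted p = 0.122). Homer1, a scaffold of synapses, was at 7.331, 8.008 and 7.042 CPM in tea libraries against 11.45, 13.23 and 13.11 CPM in saline libraries (-0.76 ± 0.21). The groups were apart in both genes. With GC trends taken out Homer1 was at 0.06, while Gria3 was at -1.46. The list's median was 0.12 with the mitochondrial percent as a term. Of the 45 genes, 11 were higher in JHHCGX_256 than in the mean of NCX_134 and NCX_147 (46.0% of all genes). In the mean of JHHCGX_129 and JHHCGX_148, 23 were higher than in NCX_124 (46.8% of all genes). For the 23 enteric neuron genes these counts were 1 and 20, and their part in the synapse list was not tested.

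Of 24 circadian clock genes 17 were negative, with a median of -0.58. At an unadjusted p under 0.05 4 were lower (10.2% of all genes) and 3 higher (6.99%), and the groups were apart in 8 below (11.4%) and 3 above (9.56%). Nr1d2, the repressor REV-ERB beta, was at 24.23, 26.55 and 41.95 CPM in tea libraries against 87.14, 81.63 and 101 CPM in saline libraries (log2 fold change -1.54 ± 0.31, edgeR adjusted p = 0.0801). Clock, the partner of the activator BMAL1, was at 43.52, 37.81 and 36.51 CPM in tea libraries against 75.75, 61.59 and 67.12 CPM in saline libraries (-0.80 ± 0.20). No overlap was seen in either gene, and with GC trends taken out Nr1d2 stood at -1.08 and Clock at -0.26. The hour at which tissue was taken is not given in the labels. In set C Nr1d2 was at -1.13 ± 0.32 (edgeR adjusted p = 0.841) and Clock at -0.09.

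**Figure D4:**
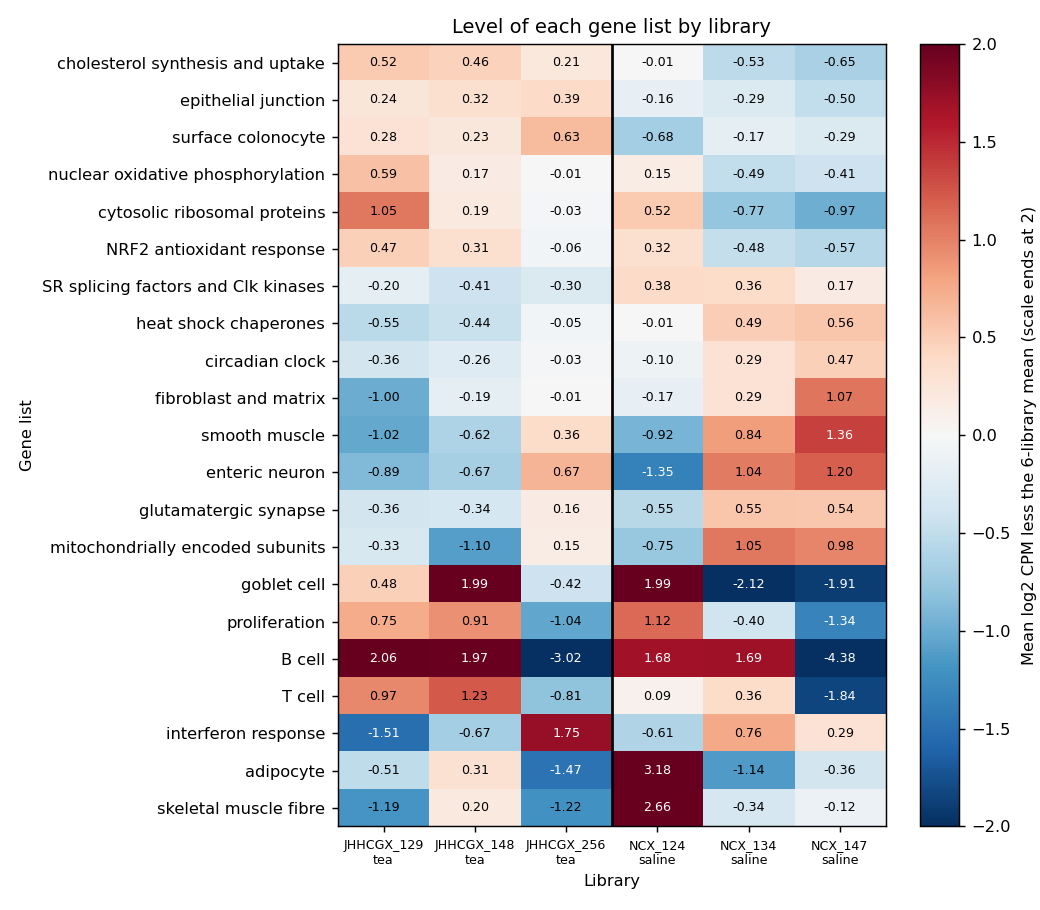
Mean log2 CPM of 21 gene lists in each library less the mean of the 6 libraries, with the 3 tea libraries left of the line and the 3 saline libraries right of it, red above and blue below the mean, and the colour scale ending at 2. Cholesterol, junction, surface colonocyte, splicing and heat shock lists order the groups without overlap. In smooth muscle and enteric neuron lists NCX_124 lies within or below the tea libraries, while NCX_134 and NCX_147 lie above them. In goblet and proliferation lists NCX_124 is the highest library and the groups overlap.

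Secreted products of goblet and hormone cells varied widely between libraries of 1 group. Of 20 goblet cell genes 13 were positive with a median of 0.28 and none had the groups apart (9.56% of all genes above, 11.4% below). Their summed level was 4508, 17360 and 1590 CPM in tea libraries against 18720, 544.8 and 682.1 CPM in saline libraries, and the median was 3.70 without NCX_124, -0.14 without JHHCGX_148, -0.19 without NCX_134 and -0.17 without NCX_147. Retnlb, an antibacterial protein of goblet cells, was at 518.1, 795.2 and 73.5 CPM in tea libraries against 131.4, 7.917 and 19.21 CPM in saline libraries (log2 fold change 3.13 ± 1.12, edgeR adjusted p = 0.208). Ang4, an antibacterial ribonuclease, was at 4.793, 691.8 and 21.71 CPM in tea libraries against 9.069, 7.917 and 17.15 CPM in saline libraries, so JHHCGX_148 alone was high. Sytl2, of vesicle traffic, was at 15.23, 22.59 and 19.38 CPM in tea libraries against 72.05, 8.388 and 17.77 CPM in saline libraries, with NCX_124 alone high. The pentraxin Mptx1, chosen like Mptx2 after its values were seen, was at 131.4, 579.3 and 42.15 CPM in tea libraries against 19.79, 4.925 and 9.138 CPM in saline libraries (4.47 ± 0.99, edgeR adjusted p = 0.0887). Mptx2 was at 77.55, 501.2 and 25.39 CPM in tea libraries against 12.48, 5.85 and 7.546 CPM in saline libraries (4.54 ± 1.09). JHHCGX_148 was the highest library in both, as for Retnlb and Ang4, and all tea libraries lay above all saline libraries. The 2 are genes whose sequences are alike enough that reads may be shared.

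Ffar2, the receptor for acetate and propionate, was at 18.69, 12.19 and 9.006 CPM in tea libraries against 3.831, 0.5043 and 1.697 CPM in saline libraries (log2 fold change 2.72 ± 0.68, edgeR adjusted p = 0.11). The groups were apart, and DESeq2 gave an adjusted p of 0.000988. Of the 12 genes of short-chain fatty acid sensing 9 were positive with a median of 0.28 (0.60 without NCX_124, 0.43 without JHHCGX_148 and 0.43 without NCX_147). Of the 12, 3 were higher at an unadjusted p under 0.05 (6.99% of all genes): Ffar2, Acads and Hdac3, a histone deacetylase at 0.42 ± 0.17. Gcg, which encodes GLP-1 in L cells, was at 50.8, 23.31 and 31.7 CPM in tea libraries against 19.53, 1.446 and 0.8484 CPM in saline libraries (2.28 ± 1.02, edgeR adjusted p = 0.3). Its groups were apart. Pyy, made by the same cells, was at 66.42, 80.36 and 89.25 CPM in tea libraries against 90.74, 9.161 and 2.694 CPM in saline libraries (1.20 ± 0.99), and Insl5 at 61.55, 63.05 and 80.96 CPM in tea libraries against 81.26, 5.564 and 1.22 CPM in saline libraries. Both were as high in NCX_124 as in tea libraries and low in NCX_134 and NCX_147. Chga, a granin of all such cells, was at 38.08, 42.95 and 42.55 CPM in tea libraries against 42.79, 20.52 and 19.59 CPM in saline libraries. The 20 enteroendocrine genes had 12 positive and a median of 0.27, which was 0.79 without NCX_124, 0.45 without JHHCGX_129 and 0.06 without NCX_134. Srcap, a chromatin remodeller that loads histone H2A.Z, was at 49.05, 59.58 and 50.79 CPM in tea libraries against 6.83, 12.67 and 16.1 CPM in saline libraries (2.16 ± 0.37, edgeR adjusted p = 0.0664). Immediate early genes had 16 of 24 positive with a median of 0.37, which was 0.16 without JHHCGX_148 and 0.24 without NCX_147. Jund, a subunit of AP-1, was at 514.9, 361.2 and 355.4 CPM in tea libraries against 244.1, 179.3 and 167.5 CPM in saline libraries (1.06 ± 0.33), apart between the groups, while Fos (1.25 ± 0.53) overlapped and Klf4 was at 0.58 ± 0.25.

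Adding the mitochondrial percent of each library to the fit separated the lists into those that kept their median and those that did not. The sign of the median turned for 11 of 46 lists, among them smooth muscle, enteric neuron, glutamatergic synapse, goblet cell and proliferation. Taking GC trends out turned the sign of 2 of 46. In cholesterol, junction, surface colonocyte and fatty acid oxidation lists the median moved by no more than 1.5 times under any of the 22 settings. All 4 medians were positive, and in the other lists at least 1 setting moved the median by more than that.

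**Figure D5:**
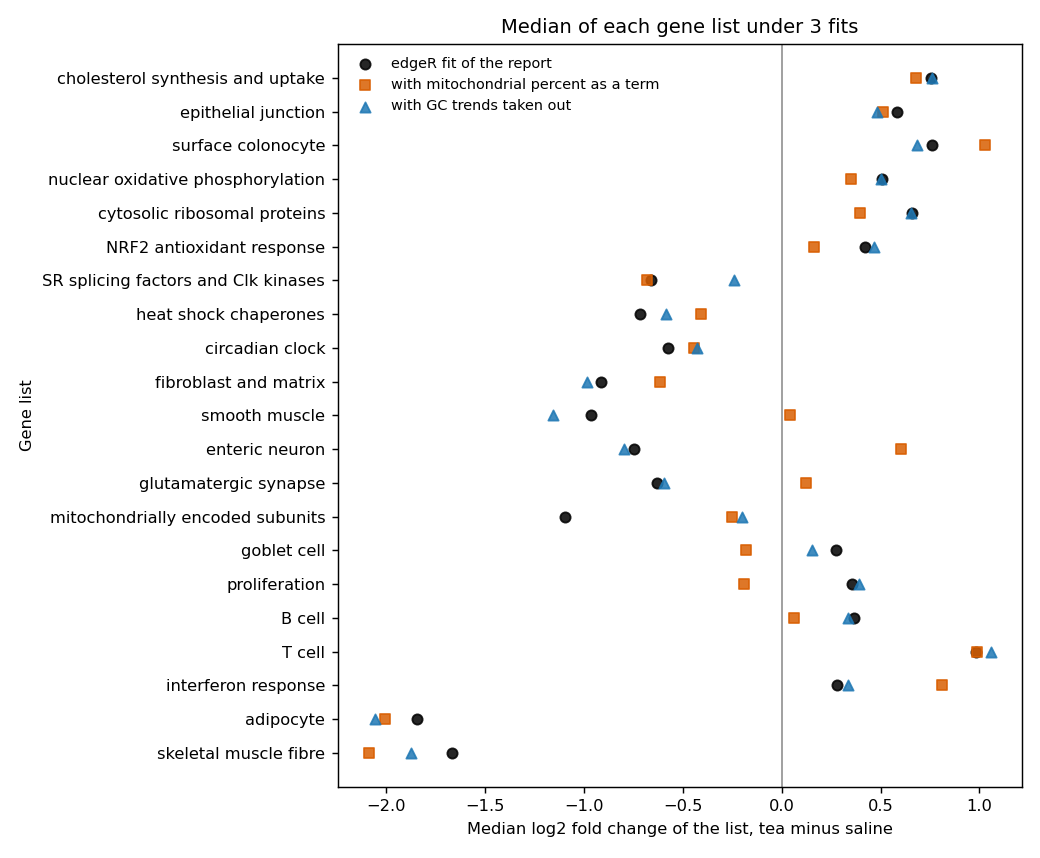
Median log2 fold change (tea minus saline) of 21 gene lists in the edgeR fit (black circles), with the mitochondrial percent as a term (orange squares) and with GC trends taken out (blue triangles). The median of smooth muscle genes was -0.96, 0.04 and -1.15 in these fits and that of the splicing list -0.66, -0.68 and -0.24, while the cholesterol list stayed at 0.68 to 0.76.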

How the data were processed

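Total RNA of mouse colon was enriched with oligo(dT) beads, per the labels' protocols. The table deposited by the authors holds counts and FPKM for 33977 genes. The submitters' processing notes list cutadapt 1.9, HISAT2 2.0.4, StringTie 1.3.4d and edgeR without their roles, and no source used here gives strandedness. They list a human build, while the gene IDs and coordinates of the deposited counts are those of mouse GRCm38. Counts were tested with edgeR 4.0.16 (R 4.3.3; TMM, filterByExpr minimum count 10, quasi-likelihood test, Benjamini-Hochberg threshold 0.05) over the 9 libraries of set X, with 6 residual degrees of freedom. The standard error of a log2 fold change is its size divided by the root of the F statistic. Alternatives included DESeq2 1.42.0, limma 3.58.1 on the authors' FPKM (pseudocount 1), other scalings and filters, and leaving out libraries. The edgeR and DESeq2 tests were tested on simulated data with less spread than these libraries and no GC trend. That simulation cannot decide between their counts of genes here.

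Named genes were the 8 of smallest p in each direction, clone-type names left out, the 3 of smallest p in each described list, and library markers. Mptx1, Mptx2, Srcap, Insl5, Muc16, Plagl1, Hspa1a, Hspa8, Hsp90aa1, Hspd1, Hspe1, Hsph1, Hmgcs1, Dnajb1, Fkbp4 and Gm49933 were chosen after their values were seen. Some genes that this rule would name are not reported here. The comparison, the lists and the tests were chosen with earlier results of these data known. Promoter windows came from RefSeq, with 17 of 25 cholesterol and 20 of 25 heat shock genes matched.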

Additional observations from a re-analysis of the deposited data

How the results depend on the processing

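The counts of genes past an adjusted p of 0.05 were 0 higher and 0 lower in edgeR, and 81 and 367 with all 18 libraries in 1 fit, 862 and 1081 with DESeq2, and 0 and 1 with limma. Leaving out 1 library gave 0 to 213 higher and 0 to 327 lower, the highest of both without NCX_124 and 0 in the other 8 fits; the cause was not tested. Other scalings and filters, the 6 libraries alone, the mitochondrial term and removal of mitochondrial genes gave 0. A further 3 alternatives, chosen after the data were seen, also gave 0: GC trends out, GC and length trends out, and without NCX_124 and FFZRX_139. Among 99 named genes, signs turned in these: Snap25 was at 0.20 with the mitochondrial term, Homer1 at 0.064 and 0.20 with GC and with GC and length trends out, Clock at 0.021 with both trends out, and Sytl2 at 0.56 without NCX_124 and FFZRX_139. Without 1 library, Sytl2 ranged over -1.20 to 0.56 and Kit over -1.23 to 0.058. List medians changed sign for 7 of 46 lists without NCX_124 and for 9 without NCX_147. No paired analysis was possible because no groups share replicate numbers. Depth differed little between the groups, and 3 libraries a group limit the precision.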

Other observations

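Lymphocyte genes split the libraries of both groups. All 18 T cell genes had positive log2 fold changes with a median of 0.98, which was 0.60 without NCX_147. Of the 18, 0 had an unadjusted p under 0.05 by edgeR (6.99% of all genes were higher at it). Their summed level was 115, 108.1 and 28.83 CPM in tea libraries against 48.8, 64.21 and 14.14 CPM in saline libraries. Cd8a, the co-receptor of cytotoxic T cells, was at 3.587, 2.88 and 1.482 CPM in tea libraries against 1.449, 1.278 and 0.2679 CPM in saline libraries (1.41 ± 0.75, edgeR adjusted p = 0.376), with the lowest tea and highest saline values nearly touching. B cell genes summed to 437.4, 436.8 and 17.23 CPM in tea libraries against 318.4, 321.1 and 6.936 CPM in saline libraries, so 1 library of each group, JHHCGX_256 and NCX_147, was low. The 11 MHC class II genes were all positive with a median of 0.43, which was -0.05 without NCX_147, 0.21 without JHHCGX_129, 0.18 without JHHCGX_148, 0.67 without JHHCGX_256, 0.65 without NCX_124 and 0.78 without NCX_134.

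Interferon response genes were high in JHHCGX_256. The 38 genes summed to 1190, 2114 and 8754 CPM in tea libraries against 1579, 4139 and 3409 CPM in saline libraries. Their median was 0.28, which was -1.39 without JHHCGX_256, 0.08 without NCX_124, 0.61 without JHHCGX_148, 0.70 without NCX_134 and 0.76 without JHHCGX_129. Gbp4, an interferon-induced GTPase, nonetheless lay at 4.621, 5.931 and 4.595 CPM in tea libraries against 6.156, 16.54 and 6.564 CPM in saline libraries (-0.95 ± 0.52). Proliferation genes summed to 551.2, 630.3 and 194.6 CPM in tea libraries against 731.1, 289.4 and 160.2 CPM in saline libraries, and their median was 0.36, which was 1.45 without NCX_124, 0.80 without JHHCGX_256, 0.22 without JHHCGX_129, 0.17 without NCX_134, 0.050 without JHHCGX_148 and -0.02 without NCX_147. Muc16, a mucin of mesothelium, was at 0.2663, 0.3582 and 0.2497 CPM in tea libraries against 0.4735, 0.3698 and 13.25 CPM in saline libraries, and Plagl1, an imprinted zinc finger gene, at 3.039, 1.246 and 4.045 CPM in tea libraries against 9.184, 8.052 and 47.37 CPM in saline libraries, with NCX_147 alone far above the rest in both.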
